A study of Mus musculus with 6 samples.

Results

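The vascular endothelial growth factor (VEGF) and platelet-derived growth factor (PDGF) genes were followed in N2a cells, a mouse neuroblastoma line, with and without Nlk. The 10 genes were named by family (the VEGF ligands Vegfa, Vegfb, Vegfc and Figf, the PDGF ligands Pdgfa, Pdgfb, Pdgfc and Pdgfd, and the PDGF receptors Pdgfra and Pdgfrb) and stand among 26657 loci in the deposited table. The family was selected on the measured FPKM of Vegfc and Pdgfra, which were higher in Nlk-KO than in WT cells, so the comparison of the genotypes is given for these 10 genes as a description without a test. The study compared 3 Nlk-KO libraries with 3 WT libraries that the labels number as biological replicates. The authors describe Nlk-KO cells made with Cas9 nickase and paired guides, and their methods also name a Cas9 vector that is not a nickase. Single clones without detectable Nlk protein were expanded. N2a cells are polyploid, and the libraries are not assigned to clones in the sources used here, so each p-value below covers no more than the spread among the 6 libraries, part of which may be technical. Both genotypes were grown without other treatment as far as the labels say. Values are FPKM, fragment numbers scaled to transcript length and to the depth of a library, so levels can be compared between genes. How the depth was scaled is not given in the sources used here.

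VEGF and PDGF ligands are secreted dimers of 1 structural superfamily held together by a cystine knot. VEGF-A acts through the receptors VEGFR1 and VEGFR2 (genes Flt1 and Kdr) on blood vessel endothelium, and VEGF-B and placental growth factor bind VEGFR1. VEGF-C and VEGF-D (the gene Figf in this annotation) act mainly through VEGFR3 (Flt4) on lymphatic endothelium. PDGF-A and PDGF-C signal mainly through the receptor tyrosine kinase PDGFRα, PDGF-D mainly through PDGFRβ and PDGF-B through both, and these receptors are best known from mesenchymal cells, oligodendrocyte precursors and pericytes. VEGF-C, VEGF-D, PDGF-C and PDGF-D are made as precursors that proteases must cleave before they bind with full activity.

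The transcripts come from 10 separate places in the mouse genome (mm10, the build named in the labels). Vegfc lies at chr8:54077132-54186454, Pdgfra at chr5:75152291-75198204, Pdgfc at chr3:81036416-81214058 and Figf at chrX:164373342-164402647. Vegfa lies at chr17:46016993-46032390, Pdgfa at chr5:138976016-138999049, Pdgfb at chr15:79995876-80014808 and Pdgfd at chr9:6168612-6377519. Vegfb has no row of its own. It shares the locus chr19:6982472-6996098 with Dnajc4 and Nudt22, so the value given for it is that of the merged locus and does not separate the 3 genes.

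The promoters of the genes with the largest differences are shown because their start regions differ in base composition and motifs. RefSeq sequences (GRCm38.p6, the same build) were matched for 8 of the 10 genes, with 10 windows of 300 bases, each running from 250 bases before the annotated start to 50 after it. Pdgfb and Pdgfrb were not matched. The windows were searched on both strands for the E-box CACGTG at the core of lysosomal CLEAR elements, the hypoxia response core ACGTG (which the E-box contains), the AP-1 site TGANTCA, the TCF/LEF site CTTTGAA, the FOXO site GTAAACA, the GC box GGGCGG bound by Sp1, the TATA box TATAAA and the CArG box bound by serum response factor. Capitals mark every match, and the annotated starts may differ from those used in these cells. They also differ from the starts of some deposited loci. The Vegfc window lies wholly inside its locus, which starts at chr8:54077132, so it does not cover the bases before that start. In the Figf window the locus start, chrX:164373342, comes before the RefSeq start. The Vegfc window (chr8:54077282-54077581, plus strand) had 70.3% G and C with 35 CpG dinucleotides and held 2 GC boxes, both read on the opposite strand. The Pdgfc window (chr3:81036166-81036465, plus strand) had 55.0% G and C with 8 CpG and held 1 CArG box. The Pdgfra window (chr5:75152001-75152300, plus strand) had 51.0% G and C with 5 CpG and held none of the motifs. The Figf window (chrX:164373272-164373571, plus strand) had 42.0% G and C with 2 CpG and held 1 TATA box.
Vegfc: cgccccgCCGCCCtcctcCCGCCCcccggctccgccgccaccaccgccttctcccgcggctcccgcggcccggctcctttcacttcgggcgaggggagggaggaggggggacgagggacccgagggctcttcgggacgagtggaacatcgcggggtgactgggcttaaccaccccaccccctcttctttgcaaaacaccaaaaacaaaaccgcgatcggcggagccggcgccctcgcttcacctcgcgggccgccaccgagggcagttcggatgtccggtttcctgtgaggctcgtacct
Pdgfc: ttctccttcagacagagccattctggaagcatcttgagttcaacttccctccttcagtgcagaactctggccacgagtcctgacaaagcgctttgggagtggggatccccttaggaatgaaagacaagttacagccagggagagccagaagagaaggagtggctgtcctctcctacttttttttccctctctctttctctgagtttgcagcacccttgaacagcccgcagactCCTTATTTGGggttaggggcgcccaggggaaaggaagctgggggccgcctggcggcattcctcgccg
Pdgfra: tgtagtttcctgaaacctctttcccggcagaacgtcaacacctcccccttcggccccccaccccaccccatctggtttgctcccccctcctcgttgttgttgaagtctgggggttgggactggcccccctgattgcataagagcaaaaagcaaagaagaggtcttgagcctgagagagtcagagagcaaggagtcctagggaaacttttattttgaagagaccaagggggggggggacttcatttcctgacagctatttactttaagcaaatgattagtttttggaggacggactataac
Figf: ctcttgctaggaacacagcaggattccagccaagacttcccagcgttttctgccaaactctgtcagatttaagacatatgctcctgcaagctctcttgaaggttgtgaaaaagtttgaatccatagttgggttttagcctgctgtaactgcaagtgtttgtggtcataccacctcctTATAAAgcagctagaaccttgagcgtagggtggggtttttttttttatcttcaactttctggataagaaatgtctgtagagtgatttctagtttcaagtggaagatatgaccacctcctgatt
Over all 32851 promoter windows of the same length, the median G and C content was 52.7% and the median number of CpG was 7. GC boxes were found in 35.7% of them, TATA boxes in 13.6% and CArG boxes in 1.63%. The remaining motifs, present in 7.15% (E-box), 19.6% (hypoxia core), 7.81% (AP-1), 5.14% (TCF/LEF) and 3.65% (FOXO) of all windows, were in none of the 10 windows except for 1 hypoxia core in the downstream Vegfa window. These matches are descriptions of the letters and no sign of binding.

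Nlk transcripts fell to 6.88 ± 0.119 FPKM in Nlk-KO cells, against 16.2 ± 0.390 FPKM in WT cells (SD, n = 3 each; log2 difference -1.22, limma adjusted p = 1.36e-06). Partner genes were tested with limma on log2(FPKM + 0.1), fitted to the 12667 loci whose mean reached 0.5 FPKM and adjusted by Benjamini-Hochberg over all of them, and an adjusted p under 0.05 was called. This fit called 18.6% of these loci higher and 18.5% lower in Nlk-KO cells (37.1% in either direction). Between 11441 and 11608 loci reached 1 FPKM per library. Total reads are not known from FPKM, but the steps of low values gave depths of 0.979 to 1.29 relative to WT replicate 1. Of 10 markers of sympathoadrenal neuroblastoma, 9 passed the filter, which is on the mean over all 6 libraries. Of these 9, 3 were called lower and 0 higher in Nlk-KO cells. The 10 markers summed to 817 to 821 FPKM in Nlk-KO and 828 to 886 FPKM in WT libraries. Most of this sum came from Hand2, Chga and Phox2a, which were not called. Among the lower markers, Dbh (2.25 ± 0.195 FPKM in Nlk-KO and 17.5 ± 1.82 FPKM in WT cells) and Th (0.415 ± 0.148 FPKM in Nlk-KO and 4.19 ± 0.0319 FPKM in WT cells), which encode enzymes of catecholamine synthesis, fell in Nlk-KO cells (SD, n = 3 each; limma adjusted p = 1.40e-06 and 2.92e-05). The mean of Th in Nlk-KO cells alone was thus under 0.5 FPKM.

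Of the 10 genes, 6 were higher in each Nlk-KO library than in any WT library (Vegfa, the Vegfb locus, Vegfc, Pdgfa, Pdgfc and Pdgfra), 2 were lower without overlap (Figf and Pdgfb), Pdgfrb overlapped and Pdgfd was listed at 0 throughout. Over all 12667 loci above the filter, 25.1% were higher and 25.9% lower without overlap (51.0% in all), and nothing is read from the count because the rule used this contrast. The 2 sets also differ, since the 10 genes include some below the filter. The mean passed 0.5 FPKM for 7 of the 10, and Pdgfb, Pdgfd and Pdgfrb stayed below it. In bulk RNA, fewer cells of a type and less RNA per cell cannot be told apart.

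**Figure D1:**
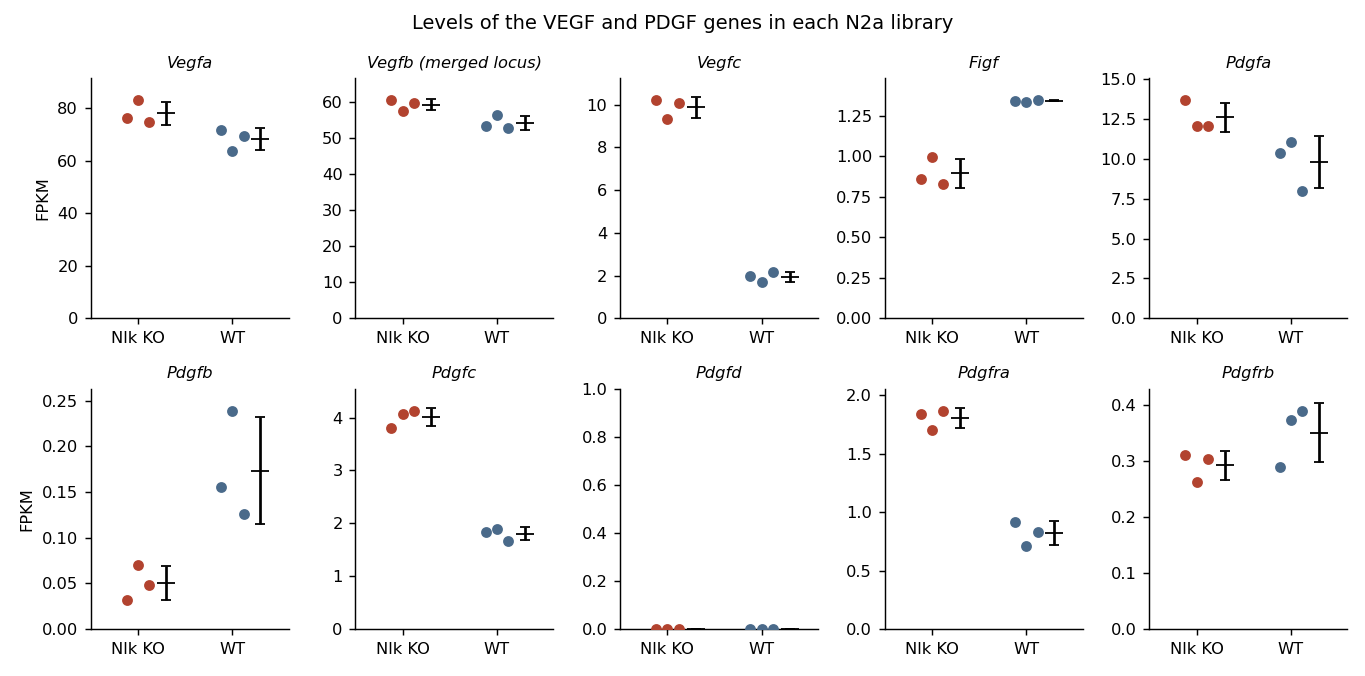
Level of each VEGF and PDGF gene in FPKM (vertical axis, from 0) in the 3 Nlk-KO libraries (red, left) and the 3 WT libraries (blue, right), with the mean and SD as black bars. The gap is widest for Vegfc, with 9.33 to 10.2 FPKM in Nlk-KO and 1.69 to 2.16 FPKM in WT libraries, and Vegfb stands for a merged locus of 3 genes.

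Vegfc, the lymphatic growth factor gene, had the largest difference of the family. Its 3 Nlk-KO libraries were at 10.2, 9.33 and 10.1 FPKM, against 1.98, 1.69 and 2.16 FPKM in the 3 WT libraries (here and below in the order of replicates 1, 2 and 3). The lowest Nlk-KO library was thus far above the highest WT library. The means were 9.88 ± 0.476 and 1.95 ± 0.237 FPKM in Nlk-KO and WT cells (SD, n = 3 each), a ratio of 5.07 and a log2 difference of 2.29 (standard error 0.106). This was the 53rd highest difference of the 12667 loci tested.

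Figf, which encodes the closest relative of VEGF-C, differed the other way. It was at 0.861, 0.998 and 0.826 FPKM in Nlk-KO libraries, against 1.34, 1.34 and 1.34 FPKM in WT libraries, with no overlap. Its log2 difference was -0.54 (standard error 0.074), and the ratio of the means was 0.667. The ratio of Vegfc to Figf was 11.1 ± 1.56 in Nlk-KO cells and 1.45 ± 0.172 in WT cells (SD, n = 3 each).

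Vegfa, the main angiogenic ligand of blood vessels, was the most abundant member in both genotypes and differed little. It was at 76.5, 83.1 and 74.6 FPKM in Nlk-KO libraries, against 71.8, 63.5 and 69.3 FPKM in WT libraries. The groups were separated by a narrow gap, with a ratio of 1.14 and a log2 difference of 0.19 (standard error 0.070). The locus that holds Vegfb, whose product is linked to lipid uptake in heart and muscle, was at 60.6, 57.6 and 59.8 FPKM in Nlk-KO libraries, against 53.4, 56.5 and 52.9 FPKM in WT libraries. Its log2 difference was 0.13 (standard error 0.037), and it cannot be assigned to Vegfb.

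Pgf, which encodes placental growth factor, a ligand of VEGFR1, was not among the 10 genes and was tested as a partner. It rose to 18.8 ± 0.562 FPKM in Nlk-KO cells, against 10.4 ± 0.690 FPKM in WT cells (SD, n = 3 each; log2 difference 0.85, limma standard error 0.054, adjusted p = 3.7e-05), and was higher in 3 of 3 libraries.

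Among the PDGF ligands, Pdgfc differed the most upward. It was at 3.81, 4.08 and 4.13 FPKM in Nlk-KO libraries, against 1.84, 1.89 and 1.66 FPKM in WT libraries. Each Nlk-KO value was above every WT value, with a ratio of 2.23 and a log2 difference of 1.11 (standard error 0.065). Pdgfa, whose product also binds PDGFRα, was the most abundant PDGF gene, at 13.7, 12.1 and 12.1 FPKM in Nlk-KO libraries, against 10.4, 11.1 and 7.99 FPKM in WT libraries. Its groups lay close to each other, and its log2 difference was 0.37 (standard error 0.15). WT replicate 3 was the lowest, and without it the log2 difference of Pdgfa was 0.23.

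The genes of the ligands that bind PDGFRβ as homodimers, Pdgfb and Pdgfd, were at or near 0. Pdgfb was at 0.0320, 0.0699 and 0.0486 FPKM in Nlk-KO libraries, against 0.155, 0.239 and 0.126 FPKM in WT libraries. These values did not overlap, but they are so low that the size of the log2 difference (-0.85, standard error 0.20) depends on the pseudocount, and it was -0.16 with a pseudocount of 1 and -1.61 with one of 0.01. Pdgfd was listed at 0 in all 6 libraries.

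Both receptor genes were at low levels, and only Pdgfra was separated between the genotypes. Pdgfra was at 1.85, 1.70 and 1.87 FPKM in Nlk-KO libraries, against 0.918, 0.713 and 0.827 FPKM in WT libraries. The groups were well apart, with a ratio of 2.2 and a log2 difference of 1.06 (standard error 0.10). Pdgfrb (chr18:61045150-61085067) was at 0.310, 0.263 and 0.304 FPKM in Nlk-KO libraries, against 0.290, 0.373 and 0.389 FPKM in WT libraries, and the groups overlapped (log2 difference -0.19, standard error 0.12). Transcripts of Pdgfra therefore exceeded those of Pdgfrb by a ratio of 6.20 ± 0.270 in Nlk-KO cells and of 2.40 ± 0.672 in WT cells (SD, n = 3 each).

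The order of the levels was much the same in both genotypes. In Nlk-KO cells it ran Vegfa, the Vegfb locus, Pgf, Pdgfa, Vegfc, Pdgfc, Pdgfra, Figf, Pdgfrb and Pdgfb, and no neighbours in this order overlapped. In Nlk-KO cells Pdgfra (1.81 ± 0.0882 FPKM) stood above Figf (0.895 ± 0.0906 FPKM), whereas in WT cells Figf (1.34 ± 0.00433 FPKM) stood above Pdgfra (0.819 ± 0.102 FPKM; SD, n = 3 each). In WT cells the libraries of Pgf overlapped with those of Pdgfa, and those of Vegfc with those of Pdgfc.

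Set against the summed FPKM of Vegfa, Vegfc, Figf and Pgf, Vegfc made up 9.19% ± 0.773 in Nlk-KO cells and 2.37% ± 0.185 in WT cells (SD, n = 3 each). Pgf made up 17.5% ± 0.776 in Nlk-KO and 12.7% ± 0.551 in WT cells, and Vegfa 72.5% ± 1.35 in Nlk-KO and 83.3% ± 0.693 in WT cells. Of the summed PDGF ligands, Pdgfc made up 24.1% ± 2.03 in Nlk-KO and 15.4% ± 1.40 in WT cells, and Pdgfa 75.6% ± 2.13 in Nlk-KO and 83.2% ± 1.23 in WT cells. The most abundant ligand of each family thus kept the largest share in every library. The depth behind these shares is unknown, so no counting interval is given.

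**Figure D2:**
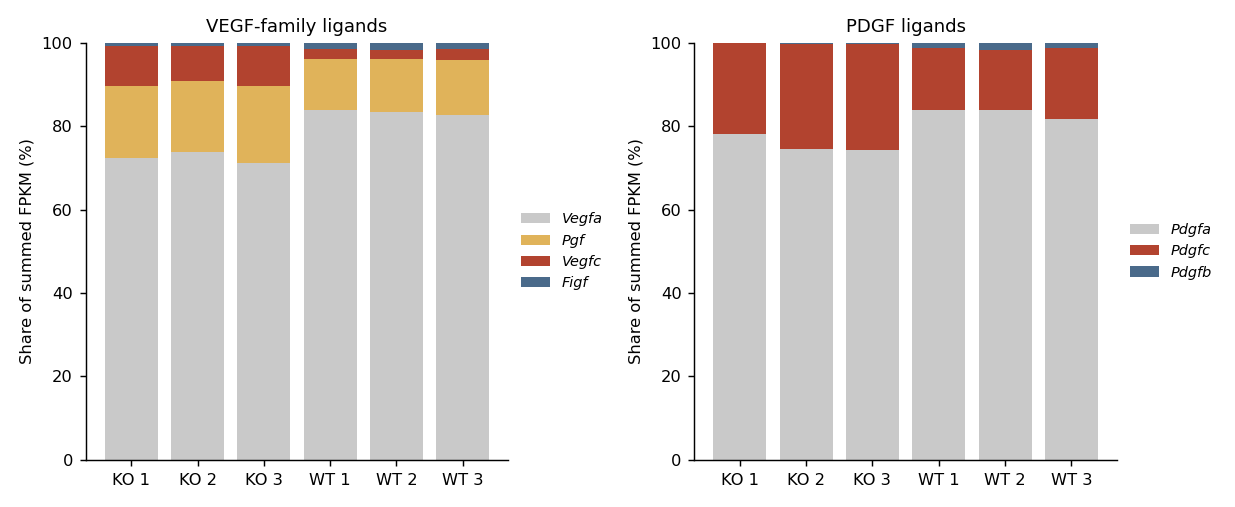
Share of each ligand in the summed FPKM of its family (vertical axis, in percent) in each library, with Nlk-KO libraries left of WT libraries; the merged Vegfb locus is left out and Pdgfd is listed at 0. Vegfc takes 8.30% to 9.66% of the VEGF-family sum in Nlk-KO and 2.22% to 2.58% in WT libraries.

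Partner genes of both pathways were listed by function, with earlier results of these data known. The shares of these lists, here and below, are therefore a description. Of the 120 genes listed, 119 were in the table. Of the 76 that passed the filter, 25 (32.9%) were higher, 12 (15.8%) lower and 39 not called, beside 18.6% and 18.5% of all loci. Their median log2 difference was 0.04, against -0.01 over all loci. When each library was rescaled to the same sum of FPKM over loci with a symbol, 8 were higher and 2 lower, and when limma tested against a 1.2-fold change instead of none, 10 and 4.

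**Figure D3:**
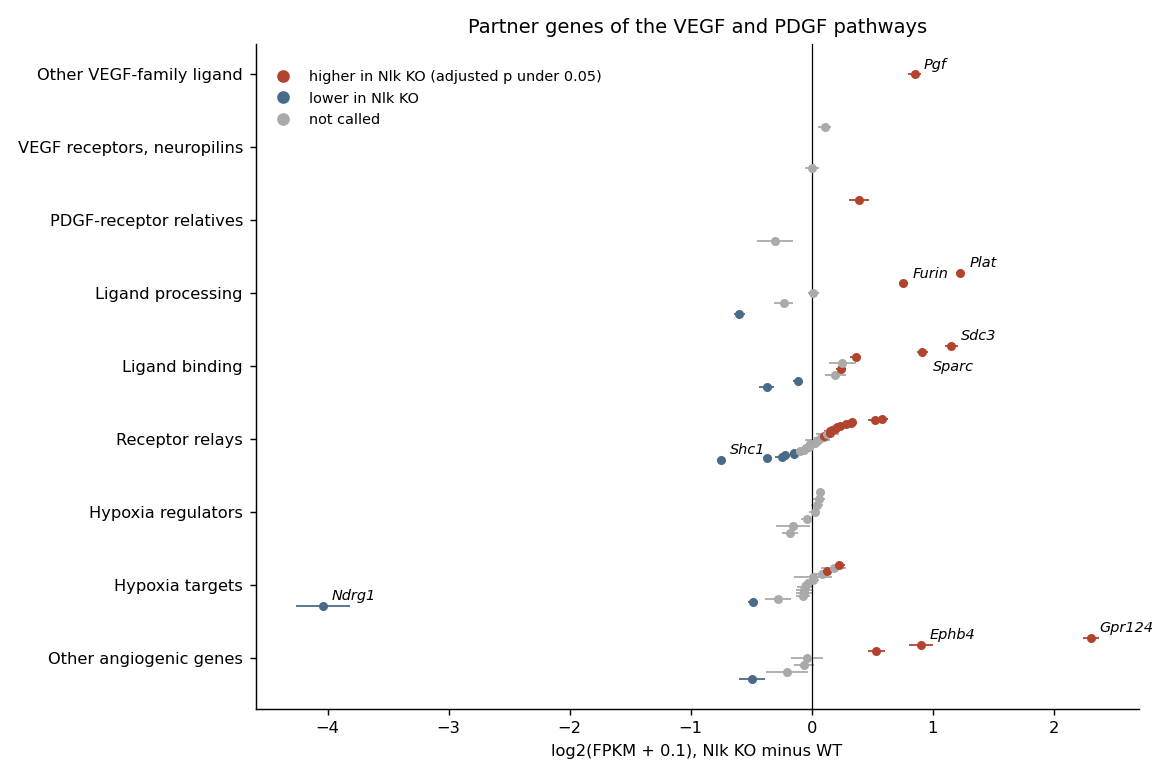
Log2 difference of each tested partner gene between Nlk-KO and WT cells on the log2(FPKM + 0.1) scale (horizontal axis), by functional list, with limma standard errors; red marks genes called higher in Nlk-KO cells, blue lower and grey not called. Pgf, Plat, Furin, Sparc, Sdc3, Ephb4 and Gpr124 lie furthest to the right and Ndrg1 furthest to the left, at -4.04. Ndrg1 averaged 0.294 FPKM in Nlk-KO cells, so the size of its difference depends on the pseudocount.

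The VEGF receptors were hardly detected in these cells. Flt1 was at 0.0147 to 0.0593 FPKM in Nlk-KO and 0.0234 to 0.0518 FPKM in WT libraries, Flt4, the receptor of VEGF-C, at 0.0213 to 0.0313 and 0.0152 to 0.0419 FPKM, and Kdr was listed at 0 in 5 of 6 libraries, reaching 0.00458 FPKM in an Nlk-KO library. The coreceptors Nrp1 and Nrp2, neuropilins that also bind semaphorins, were abundant instead. Nrp1 was at 57.8 ± 3.68 FPKM in Nlk-KO and 53.6 ± 1.98 FPKM in WT cells (SD, n = 3 each; log2 difference 0.11, limma standard error 0.053, adjusted p = 0.162), and was called without Nlk-KO replicate 2 (log2 difference 0.16, adjusted p = 0.033). Nrp2 was at 24.9 ± 2.07 FPKM in Nlk-KO and 24.8 ± 0.127 FPKM in WT cells (log2 difference 0.01, limma standard error 0.058, adjusted p = 0.956).

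The relatives of the PDGF receptors were mostly near 0. Kit, Csf1r and Flt3, which belong to the same receptor class, reached at most 0.0338, 0.0392 and 0.00694 FPKM in Nlk-KO libraries, against 0, 0.00774 and 0.00822 FPKM in WT libraries. Of their ligands, Kitl and Il34 stayed under 0.1 FPKM in each library. Csf1, a ligand of Csf1r, rose to 3.08 ± 0.146 FPKM in Nlk-KO cells, against 2.33 ± 0.210 FPKM in WT cells (SD, n = 3 each; log2 difference 0.39, limma adjusted p = 0.00973), a call that ended under both the common sum and the 1.2-fold requirement. Flt3l had 2.44 ± 0.542 FPKM in Nlk-KO and 3.01 ± 0.247 FPKM in WT cells (limma adjusted p = 0.147) and was called without Nlk-KO replicate 2 (log2 difference -0.47, adjusted p = 0.0168). The receptor-like gene Pdgfrl was at 0.0991 to 0.178 FPKM in Nlk-KO and 0.0635 to 0.0782 FPKM in WT libraries, below the filter.

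Proteases that act on these ligands changed in both directions, with 2 of 5 tested higher and 1 lower (40% and 20%, beside 18.6% and 18.5% of all loci). Plat, the tissue plasminogen activator that is known to cleave PDGF-C into its active form, rose to 22.3 ± 0.534 FPKM in Nlk-KO cells, against 9.45 ± 0.157 FPKM in WT cells (SD, n = 3 each; log2 difference 1.23, limma standard error 0.035, adjusted p = 1.08e-06). Furin, a convertase that cleaves VEGF-C, VEGF-D and PDGF precursors, rose to 43.2 ± 0.403 FPKM in Nlk-KO cells, against 25.5 ± 0.822 FPKM in WT cells (log2 difference 0.76, limma adjusted p = 8.23e-06). Its relative Pcsk6 fell to 9.78 ± 0.335 FPKM in Nlk-KO cells, against 14.9 ± 0.721 FPKM in WT cells (log2 difference -0.60, limma adjusted p = 1.13e-04), and this call ended with the common sum. The pair known for the stepwise maturation of VEGF-C was nearly absent, since Ccbe1 was listed at 0 in all 6 libraries and Adamts3 reached 0.00978 FPKM in an Nlk-KO library and was listed at 0 in WT libraries.

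Genes of proteins that bind the ligands or present them at the cell surface were higher in 4 and lower in 2 of 8 tested. These are 50% and 25%, beside 18.6% and 18.5% of all loci. Sparc, a matrix protein that binds PDGF and VEGF, rose to 17.8 ± 0.196 FPKM in Nlk-KO cells, against 9.39 ± 0.508 FPKM in WT cells (SD, n = 3 each; log2 difference 0.91, limma adjusted p = 1.28e-05). The heparan sulfate proteoglycan genes Sdc3 and Sdc1 rose by 1.15 and 0.36 on the log2 scale (limma adjusted p = 1.02e-05 and 9.33e-04), while Gpc1 fell by 0.37 (adjusted p = 0.00348). The calls of Sdc1 and Gpc1 ended with the common sum and with the 1.2-fold requirement.

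Of 30 tested relays that PDGF and VEGF receptors share with other receptor tyrosine kinases, 12 were higher, 6 lower and 12 not called. Higher relays made up 40% and lower ones 20%, beside 18.6% and 18.5% of all loci. The adaptor gene Nck2 rose to 53.0 ± 2.61 FPKM in Nlk-KO cells, against 35.4 ± 1.36 FPKM in WT cells (SD, n = 3 each; log2 difference 0.58, limma adjusted p = 1.12e-04), and the kinase gene Src by 0.52 on the log2 scale (adjusted p = 3.35e-04). The locus of the adaptor gene Shc1, which it shares with Pygo2, fell to 26.6 ± 0.393 FPKM in Nlk-KO cells, against 44.8 ± 1.2 FPKM in WT cells (log2 difference -0.75, limma adjusted p = 7.26e-06), and the kinase gene Fyn fell by 0.37 (adjusted p = 4.8e-04). Plcg1, Ptpn1, Ptprj and Src, 4 of the 12 higher genes, lie on chromosome 2, where the median log2 difference was 0.19 over 1042 loci, and Fyn lies on chromosome 10, where it was -0.20 over 646 loci. With the median of each chromosome removed, 10 relays were higher and 5 lower. In that setting the log2 difference was 0.33 for Src and -0.16 for Fyn, and both were still called (limma adjusted p = 0.0035 and 0.0201). The calls of Src and Fyn ended with the common sum, and that of Fyn also with the 1.2-fold requirement.

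Hypoxia is a known inducer of Vegfa. None of the 7 tested genes of the oxygen-sensing machinery, Hif1a and Vhl among them, was called by limma. Of 14 tested hypoxia targets 2 were higher and 2 lower (14.3% each, beside 18.6% and 18.5% of all loci). These are transcript levels, and a part of hypoxia in the differences was not tested. Ndrg1 fell to 0.294 ± 0.127 FPKM in Nlk-KO cells, against 6.18 ± 0.501 FPKM in WT cells (SD, n = 3 each; log2 difference -4.04, limma adjusted p = 2.1e-05). Its mean in Nlk-KO cells alone was thus under 0.5 FPKM, and the size of its log2 difference depends on the pseudocount. P4ha2, a collagen prolyl hydroxylase gene, had a log2 difference of -0.48 (limma adjusted p = 1.25e-04), the glucose transporter gene Slc2a1 of 0.23 (adjusted p = 0.0095) and the histone demethylase gene Kdm3a of 0.13 (adjusted p = 0.0432). The calls of P4ha2, Slc2a1 and Kdm3a ended with the common sum, and those of Slc2a1 and Kdm3a also with the 1.2-fold requirement. That of Kdm3a ended as well with no filter (adjusted p = 0.0573), with the chromosome median removed (0.0679), with a replicate block (0.0811) and without Nlk-KO replicate 1, Nlk-KO replicate 2, WT replicate 1, WT replicate 2 or WT replicate 3 (adjusted p = 0.0564 to 0.127).

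Among other genes of vessel growth, 3 of 7 tested were higher and 1 lower (42.9% and 14.3%, beside 18.6% and 18.5% of all loci). Gpr124, an adhesion receptor of brain endothelium that acts in Wnt signalling, rose to 18.2 ± 0.255 FPKM in Nlk-KO cells, against 3.61 ± 0.326 FPKM in WT cells (SD, n = 3 each; log2 difference 2.30, limma adjusted p = 1.08e-06). The ephrin receptor gene Ephb4 and the angiopoietin gene Angpt2 rose by 0.90 and 0.53 on the log2 scale (adjusted p = 5.66e-04 and 0.00101), and Fgf1 fell by 0.50 (adjusted p = 0.0108). The calls of Angpt2 and Fgf1 ended with the common sum, and that of Fgf1 also with the 1.2-fold requirement.

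Markers of cells in which these pathways are usually studied were at low levels or mixed. Of 8 endothelial markers, Pecam1 alone passed the filter and fell to 1.14 ± 0.228 FPKM in Nlk-KO cells, against 1.77 ± 0.244 FPKM in WT cells (SD, n = 3 each; limma adjusted p = 0.0223); this call ended with the common sum, with the 1.2-fold requirement and when any 1 of Nlk-KO replicates 1 and 3 or WT replicates 1 and 2 was left out (adjusted p = 0.0713 to 0.0752), and Cdh5, Tie1, Emcn, Cldn5 and Robo4 were under 0.1 FPKM in each library. Of 7 mural markers, which PDGFRβ-positive pericytes carry, the muscle filament gene Des was at 26.3 to 33.1 FPKM in Nlk-KO and 27.5 to 32.9 FPKM in WT libraries, Notch3 rose to 2.38 ± 0.235 FPKM in Nlk-KO cells, against 0.599 ± 0.0448 FPKM in WT cells (limma adjusted p = 3.27e-05), and Kcnj8 was listed at 0 throughout. Of 6 fibroblast markers, Fbln1 rose to 204 ± 6.48 FPKM in Nlk-KO cells, against 147 ± 9.88 FPKM in WT cells (limma adjusted p = 6.63e-04, a call that ended with the common sum), while Col1a1, Col1a2, Col3a1 and Lum were under 0.1 FPKM in each library. Of 5 markers of oligodendrocyte precursors, the classic PDGFRα-positive cells of the nervous system, Bcan alone passed the filter and was not called, and Sox10 reached at most 0.0667 FPKM in Nlk-KO and 0.0113 FPKM in WT libraries. The summed endothelial markers were 1.63 to 2.05 FPKM in Nlk-KO and 2.22 to 2.77 FPKM in WT libraries, the mural ones 28.9 to 36.1 and 28.3 to 34.0, the fibroblast ones 198 to 211 and 135 to 153, those of oligodendrocyte precursors 4.21 to 5.19 and 4.07 to 4.96, and 5 macrophage markers, of which Cd68, in a locus shared with Eif4a1 and Senp3, alone passed the filter, 345 to 386 and 369 to 404 FPKM. Nearly all of the macrophage sum came from the merged Cd68 locus (366 ± 20.4 FPKM in Nlk-KO and 392 ± 19.9 FPKM in WT cells, SD, n = 3 each). This value cannot be assigned to Cd68, and the other 4 macrophage markers were under 0.1 FPKM in each library. The part of all these markers in the differences of Vegfc, Pdgfc and Pdgfra was not tested.

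The tested loci around Vegfc and Pdgfra all had smaller differences. Within 1 Mb of Vegfc, 1 of 4 tested loci was called higher (Spcs3, a signal peptidase subunit gene, log2 difference 0.22, limma adjusted p = 0.007), and their median log2 difference was -0.03. Within 1 Mb of Pdgfra, 5 of 9 tested loci were lower and 1 was higher (Rasl11b, log2 difference 0.38, limma adjusted p = 0.0212), with a median of -0.18. Its nearest tested neighbour, Chic2, fell by 0.20 on the log2 scale (adjusted p = 0.00349), and the receptor genes Kit and Kdr, which follow Pdgfra on chromosome 5, were below the filter. Over all of chromosome 5 the median was -0.11, and over chromosome 8 it was -0.02. Within 1 Mb of Pdgfc, Gria2, a glutamate receptor subunit gene, was lower (log2 difference -0.997, limma adjusted p = 3.24e-04) and Gucy1b3, a guanylate cyclase subunit gene, higher (log2 difference 0.26, adjusted p = 0.00589) among 4 tested loci.

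**Figure D4:**
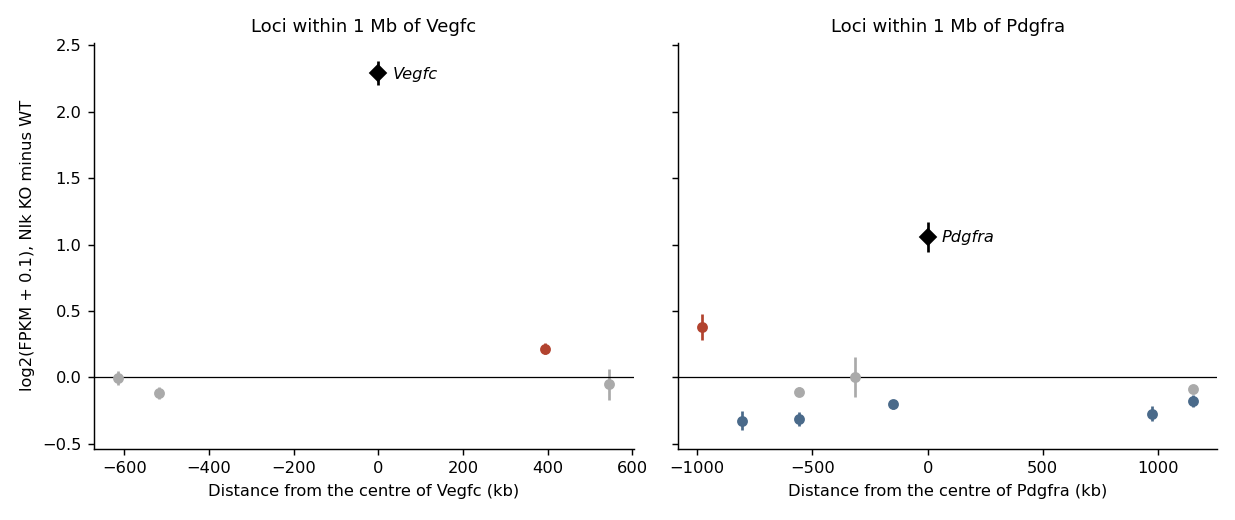
Log2 difference between Nlk-KO and WT cells on the log2(FPKM + 0.1) scale (vertical axis, with limma standard errors) of each tested locus within 1 Mb of the ends of Vegfc (left) and Pdgfra (right), by distance between locus centres in kb. Black diamonds are Vegfc (2.29) and Pdgfra (1.06), red points are loci called higher, blue lower and grey not called, and the neighbours lie between -0.33 and 0.38.

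The genes whose levels followed Vegfc most closely over the 6 libraries, by Pearson correlation of log2(FPKM + 0.1), were Rrbp1 (r = 0.9996), Scg2 (0.9993), Tmsb4x (0.9991) and Spint1 (0.9990), and for Pdgfra Ndufaf5 (0.9985), Dlg3 (0.9984), Sypl (0.9973) and Cobll1 (0.9972). All these genes were higher in Nlk-KO cells and the points share the same 6 libraries in 2 groups. A correlation of 0.9 or more was reached by 1623 of the 10550 loci searched for Vegfc and by 1540 for Pdgfra, so these are a description and no p is given.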

How the data were processed

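RNA from 3 Nlk-KO and 3 WT N2a libraries was selected with oligo-dT and sequenced from both ends. The authors aligned the reads to mm10 with TopHat2 (2.1.0), quantified loci with Cufflinks (2.2.1), normalized with Cuffnorm and deposited FPKM, as their methods and processing notes state. The annotation and the scaling used are not given in these sources. The deposited columns of averages, fold changes and p-values, and a second table of loci selected with them, were not used. Library columns were matched to labels by name, and 0 stayed unmapped. Where a symbol had several rows, that with the highest mean was taken. Locus starts were raised by 1 to count from 1, since 43.3% of 21475 loci then matched a RefSeq start, against 2.51% as deposited.

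The limma model (3.58.1, in R 4.3.3, trended prior) compared log2(FPKM + 0.1) between 3 Nlk-KO and 3 WT libraries for 12667 loci averaging 0.5 FPKM or more. Fold changes of low genes are understated on this scale. Standard errors of the 10 genes come from the replicate SDs and those of partners from limma. The fit was tested on simulated data.

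The 10 genes, the partner and marker lists, the tests and the alternatives were chosen with earlier results of these data known. Partner genes named are Pgf, the VEGF receptors, the relatives of the PDGF receptors and up to 4 called genes of each other list with the largest difference, of which 1 is not reported here. The genes most like Vegfc and Pdgfra were the first 4 by correlation among loci of 1 symbol averaging 1 FPKM or more. Neighbouring loci, partners and markers below the filter, and other relays were named after their values were seen. Alternatives were other pseudocounts, filters and scalings, removal of chromosome medians, a 1.2-fold requirement, a replicate block, summed rows of repeated symbols and leaving out each library.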

Additional observations from a re-analysis of the deposited data

How the results depend on the processing

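The log2 differences of the 9 detected VEGF and PDGF genes kept their sign under each alternative run. With a pseudocount of 1 they were 1.89 for Vegfc, -0.31 for Figf, -0.16 for Pdgfb, 0.84 for Pdgfc and 0.63 for Pdgfra, and with one of 0.01 that of Pdgfb was -1.61. With the chromosome median removed Pdgfc was at 1.21, and with a common sum of FPKM over named loci the Vegfb locus was at 0.19. Leaving out 1 library at a time gave 2.2 to 2.37 for Vegfc and 0.97 to 1.13 for Pdgfra. With a minimum mean of 5 FPKM, Figf, Pdgfb, Pdgfc, Pdgfra and Pdgfrb gave no value.

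Of all loci, 568 were higher and 355 lower with the common sum, and 618 and 451 with a 1.2-fold requirement, against 2356 and 2341. Of the partner genes, 8 were higher and 2 lower with the common sum, and 10 and 4 with the 1.2-fold requirement, against 25 and 12. Leaving out 1 library gave 20 to 25 higher and 9 to 13 lower partners. Of the 28 called genes named, 13 calls ended with the common sum and 8 with the 1.2-fold requirement. The common sum divides Nlk-KO libraries by 1.16, 0.883 and 0.892 and WT libraries by 1.06, 0.862 and 1.14. For Sdc1 the log2 difference was 0.43 with it and 0.36 without, and the limma standard error 0.207 and 0.046. With another scaling, by the median of ratios, 2442 loci were higher and 2240 lower, and 26 and 11 partners. The cause of the lost calls was not tested.

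Same-numbered libraries did not deviate together (correlations of deviations 0.04, 0.06 and -0.13 for replicates 1, 2 and 3), and not every library correlated best with its own number, so the numbers were not taken as pairs. With the replicate block 2065 loci were higher and 1973 lower, and 22 and 11 partners, and Kdm3a was the only named gene whose call ended (adjusted p = 0.0811). Read depth is known only in relative terms, so values under 0.1 FPKM have no counting interval.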
